A study of Mus musculus with 4 samples.

Results

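Genes that take up, store, release and sense iron were examined for SMAD4 binding in alveolar macrophages (AMs) of the mouse, which live in the airspaces of the lung. The 9 genes were Slc40a1, Slc11a1, Slc11a2, Tfrc, Fth1, Ftl1, Ncoa4, Ireb2 and Aco1, out of 20923 protein-coding genes with curated RefSeq transcripts. They were chosen by function, at a time when earlier results of these data were known. A peak was assigned to one of them when its summit, the position with most fragments, lay in the gene body or within 50 kb of a transcription start site (TSS). Both peak lists together held 48 such peaks of 35384. Peaks of one list that overlapped a peak of the other by at least 1 bp were merged with it into a shared region, and 20 of all 10964 shared regions had a peak assigned to an iron handling gene.

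The AMs came from 9-week-old wild-type C57BL/6J mice and were sorted after bronchoalveolar lavage in aliquots of 200000 cells. SMAD4 is the partner that receptor-activated SMADs need to carry TGFβ signals to target genes. It was precipitated with anti-SMAD4 antibody and its DNA was tagged with Tn5 on the beads (HT-ChIPmentation). There were 2 SMAD4 libraries, called replicates 1 and 2 in accession order. The 2 input libraries enter here only through the control level of a peak. The sources do not say whether the replicates came from separate mice. All samples were of one genotype and untreated as far as the sources say, so that no condition could be compared and no test was made. C57BL/6 mice carry a Slc11a1 allele whose protein is not functional, which limits this strain as a model for that gene.

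Replicate 1 held 16369 peaks and replicate 2 held 19015. The median peak had a fold enrichment over the control of 5.52 in replicate 1 and 6.77 in replicate 2, resting on 17 and 14 fragments at the summit. The genome-wide control level was 2.08 fragments in replicate 1 and lower, at 1.22, in replicate 2, so a given fold stands for fewer fragments in replicate 2. The control stood at this level at 79.3% of summits in replicate 1 and 80.9% in replicate 2. Among the shared regions at iron handling genes, it did so in both libraries at all but the Slc11a1 region at -1696 bp. Folds at those regions are over a genome-wide level and not over input signal at the locus. A shared region was present at 10 of 10 AM marker genes found in the annotation and at 5 of 11 marker genes of other lung cells (45.5%), by a rule that gave one to 39.1% of all protein-coding genes.

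Macrophages acquire iron from transferrin, which enters through the transferrin receptor, and from red cells and particles that they engulf. Iron leaves endosomes and phagosomes through transporters of the NRAMP family, is stored inside cages of ferritin heavy and light chains, and leaves the cell through ferroportin. When iron is scarce, ferritin is carried to the lysosome by the receptor NCOA4 and broken down. Iron regulatory proteins, encoded by Aco1 and Ireb2, bind stem loops in the mRNAs for ferritin, ferroportin and the transferrin receptor and set their translation or stability. In the airspace, AMs are the main cells that clear and hold iron from inhaled particles and leaked blood.

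Of the 9 genes, 6 had at least 1 shared region, namely Slc11a1, Tfrc, Fth1, Ftl1, Ncoa4 and Aco1. The same rule gave a shared region to 39.1% of all protein-coding genes, which is the background against which 6 of 9 (66.7%) is read. By this rule, the genes for ferritin and its turnover receptor held most of the regions, with 7 at Fth1, 6 at Ncoa4 and 3 at Ftl1, or 16 of 20. The 4 regions nearest to the TSS of another gene were all among these 16. The exporter gene Slc40a1, the transporter gene Slc11a2 and the regulator gene Ireb2 had none. With so few genes, these counts are a description of the members and were not tested.

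The genomic sequence at the summits is shown for 6 regions with one region per gene, because these windows carry the strings discussed further on or, for Tfrc, none of them. They are the strongest region of each gene by the lower percentile of both lists, except at Ftl1. The strongest Ftl1 region, in the promoter of Gys1 and Ruvbl2, is not shown and held 1 match, a RUNX string. Each window reaches 100 bp to either side of the mean summit, except that of Slc11a1, which stops at the TSS. Sequences are from RefSeq GRCm38.p6, the assembly named mm10, on the plus strand from 5′ to 3′. Capitals mark matches to the searched strings on either strand.
Fth1, upstream, chr19:9938937-9939137: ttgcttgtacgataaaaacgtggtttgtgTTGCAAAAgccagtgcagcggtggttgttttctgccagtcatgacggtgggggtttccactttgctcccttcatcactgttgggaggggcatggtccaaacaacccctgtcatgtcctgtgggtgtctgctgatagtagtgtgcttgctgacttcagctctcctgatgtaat
Aco1, intron, chr4:40156244-40156444: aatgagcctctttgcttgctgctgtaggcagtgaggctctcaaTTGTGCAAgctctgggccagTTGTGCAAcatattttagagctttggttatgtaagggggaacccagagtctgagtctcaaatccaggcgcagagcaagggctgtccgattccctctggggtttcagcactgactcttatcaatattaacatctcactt
Ncoa4, upstream, chr14:32154909-32155109: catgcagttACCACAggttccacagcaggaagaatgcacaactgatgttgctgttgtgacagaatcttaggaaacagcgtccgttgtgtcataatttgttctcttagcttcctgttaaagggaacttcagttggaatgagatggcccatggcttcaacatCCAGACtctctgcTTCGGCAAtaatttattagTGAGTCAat
Ftl1, past the 3′ end, chr7:45457333-45457533: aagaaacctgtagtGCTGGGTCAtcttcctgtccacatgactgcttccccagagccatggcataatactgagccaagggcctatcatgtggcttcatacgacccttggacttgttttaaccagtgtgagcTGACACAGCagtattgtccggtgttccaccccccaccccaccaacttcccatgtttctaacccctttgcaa
Slc11a1, promoter, chr1:74375059-74375202: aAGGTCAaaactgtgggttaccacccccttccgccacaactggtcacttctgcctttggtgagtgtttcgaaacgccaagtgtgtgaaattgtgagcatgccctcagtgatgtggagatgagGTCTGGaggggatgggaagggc
Tfrc, upstream, chr16:32595235-32595435: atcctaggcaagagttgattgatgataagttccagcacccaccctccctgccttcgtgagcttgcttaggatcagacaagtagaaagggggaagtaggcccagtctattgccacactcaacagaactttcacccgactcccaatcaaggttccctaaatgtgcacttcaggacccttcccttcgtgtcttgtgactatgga
The capitals are the C/EBP string in the Fth1 window, 2 copies of it in the Aco1 window, and RUNX, SMAD, C/EBP and AP-1 strings, in that order, in the Ncoa4 window. In the Ftl1 window they are 2 antioxidant response elements, and in the Slc11a1 window a nuclear receptor string followed by a SMAD string, while the RBPJ string of that region lies past the TSS and is not shown.

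Fth1 encodes the ferritin heavy chain, which oxidizes iron as it enters the ferritin cage. The gene lies on chromosome 19 (9980600 to 9985111, plus strand). It had 8 peaks in replicate 1 and 10 in replicate 2, which formed 7 shared regions. All 7 were intergenic and upstream, with mean summits from 2590 bp to 48959 bp before the nearest Fth1 TSS, and no TSS of another curated gene lay between any of them and Fth1. Thus the peaks seen in both libraries at Fth1 formed a series over the upstream interval, and the promoter itself, 1 kb before to 100 bp after a TSS, held no shared region.

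The strongest Fth1 region (chr19:9938604-9939409) lay 41563 bp upstream. Its fold enrichment was 19.8 in replicate 1 and 30.2 in replicate 2. At its summit 60 fragments were stacked in replicate 1 (exact Poisson 95% interval 45.8 to 77.2) and 66 in replicate 2 (51.0 to 84.0). These intervals cover counting error only. The fold stood at percentile 97.3 of list 1 and 97.7 of list 2, and the summits of both lists were 5 bp apart. It was thus among the strongest peaks of either library, at nearly the same base.

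The region at -48959 bp (chr19:9931122-9931959) had a fold of 11.7 in replicate 1 and 15.3 in replicate 2, with 35 and 33 fragments. The nearest TSS of both this region and the strongest one was that of Gm50340, a long non-coding RNA gene, at 31963 bp and 39359 bp, so their assignment to Fth1 rests on the 50 kb window. The region at -27678 bp (chr19:9952312-9953394) had Fth1 as its nearest gene. Its fold was 8.12 in replicate 1 and 16.7 in replicate 2, and at 1083 bp it was the widest of the 20 regions. The other 4 Fth1 regions had folds from 4.87 to 8.77 in replicate 1 and from 7.22 to 10.4 in replicate 2. Those closest to the gene, at -5588 bp and -2590 bp, were among the weaker ones, with 21 and 14 fragments in replicate 1 and 22 and 15 in replicate 2.

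Replicate 2 had 3 further Fth1 peaks without a partner. One lay between the distal regions at -37596 bp with 11 fragments, and the others lay at the 3′ end of the gene, 2153 bp and 3115 bp past the nearest TSS, with 12 and 14 fragments. The peak at 2153 bp fell in coding sequence and that at 3115 bp in the neighbouring gene Best1, beyond the end of Fth1. Ferritin genes have near-identical processed copies elsewhere in the genome and the authors kept reads of high mapping quality, so that enrichment within ferritin exons is uncertain.

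Ftl1 encodes the ferritin light chain, which aids the formation of the iron core. The gene is short, 1943 bp on chromosome 7 (45457944 to 45459886, minus strand), and 3 shared regions were assigned to it. The region over its start (chr7:45459835-45460381) was a weak one. Its fold was 5.20 in replicate 1, with 15 fragments (8.40 to 24.7), and 8.12 in replicate 2, with 17 fragments (9.90 to 27.2). The summits lay 307 bp upstream of the TSS in replicate 1 and 17 bp upstream in replicate 2, the widest summit gap of the 20 regions at 290 bp.

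Another Ftl1 region lay past the other end of the gene, 2453 bp from the TSS, within 1 kb of the transcription termination site (chr7:45457325-45457738). It had folds of 8.45 in replicate 1 and 10.4 in replicate 2, with 25 and 22 fragments, so that it was higher than the promoter region in both lists. The third region (chr7:45434318-45434868) had folds of 9.42 and 14.0, with 28 and 30 fragments. It was 25221 bp from the Ftl1 TSS, in the promoter shared by Gys1 and Ruvbl2, and its summit was nearest the TSS of Ruvbl2 in replicate 1 and that of Gys1 in replicate 2. Its place in the count of Ftl1 therefore follows from the window alone.

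Ncoa4 encodes the receptor that delivers ferritin to lysosomes. It lies on chromosome 14 (32159887 to 32179855, plus strand), has 3 annotated start sites, and had 7 peaks in replicate 1 and 6 in replicate 2. These formed 6 shared regions, and no Ncoa4 peak lacked a partner. The strongest (chr14:32154753-32155337) lay 4878 bp upstream, inside an intron of the neighbouring gene Msmb. Its fold was 9.75 in replicate 1, with 29 fragments (19.4 to 41.6), and 16.7 in replicate 2, with 36 fragments (25.2 to 49.8).

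By the lower percentile of both lists, the next Ncoa4 region (chr14:32184060-32184724) had folds of 8.45 and 13.1, with 25 and 28 fragments, and lay past the end of Ncoa4 in an intron of Timm23, whose TSS was the nearest. In the body of Ncoa4 there were 4 regions. One (chr14:32174028-32174810) lay 8674 bp from the nearest Ncoa4 TSS, with folds of 6.82 and 8.57. Its mean summit fell in coding sequence of an exon, but the summits of both lists, 201 bp apart, were intronic. The 3 others were intronic, at -1057, 529 and 1612 bp from the nearest start site, with folds from 5.2 to 6.5 in replicate 1 and from 5.41 to 13.5 in replicate 2, where the one at -1057 bp was higher than the Timm23 region. The weakest of all 20 regions in replicate 2 was among them, with 11 fragments at 1612 bp.

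**Figure D1:**
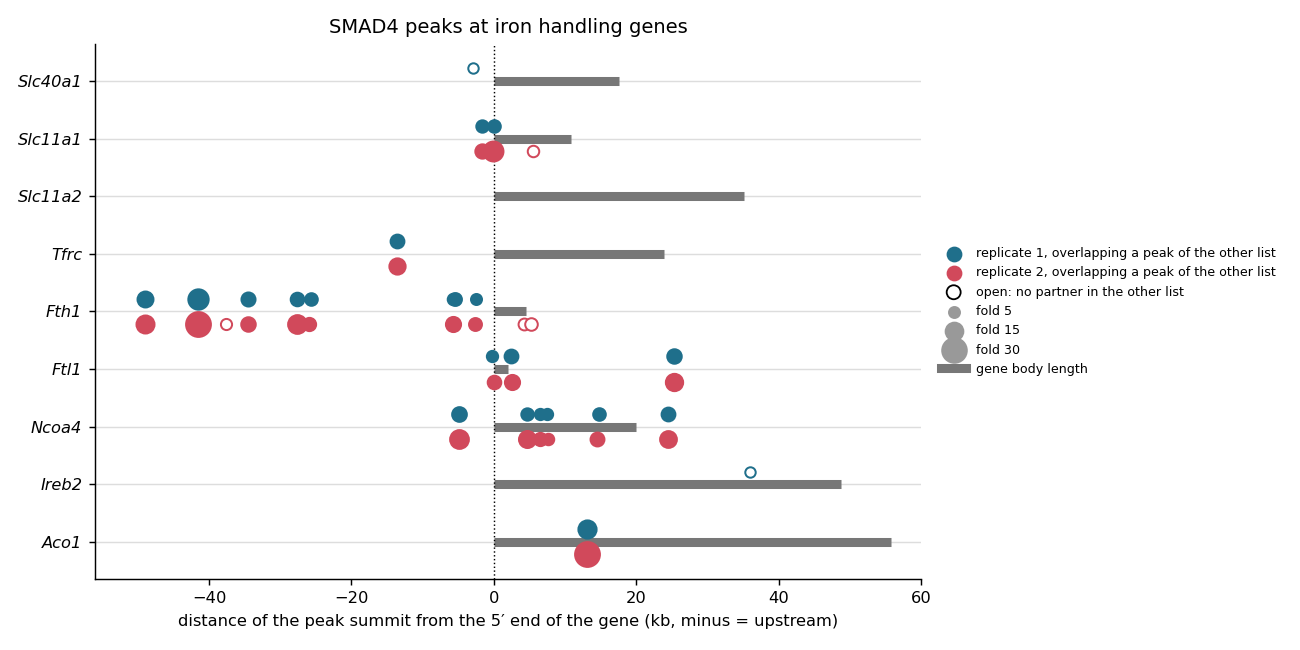
Peaks of SMAD4 at the 9 iron handling genes, by distance of the summit from the 5′ end of the gene in kb, with replicate 1 above and replicate 2 below each line. Filled points overlap a peak of the other list, open points do not, point area grows with fold enrichment, and grey bars are gene bodies. Fth1 has 7 filled positions, all upstream, and Slc11a2 has no point.

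Aco1 encodes an iron regulatory protein that works as cytosolic aconitase while it holds an iron-sulfur cluster. Its gene body is the longest of the 9 at 55745 bp (chromosome 4, 40143265 to 40199009, plus strand) and held a single peak in each list. These peaks shared a region in an intron, 13079 bp past the TSS (chr4:40155891-40156751). The fold was 15.6 in replicate 1 and 30.2 in replicate 2, at percentiles 94.5 and 97.7. The summit held 47 fragments in replicate 1 (34.5 to 62.5) and 66 in replicate 2 (51.0 to 84.0), and the summits were 22 bp apart.

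Ireb2 encodes the other iron regulatory protein, which is degraded when iron is plentiful. It had 1 peak, in replicate 1 only, in an intron 35923 bp past the TSS (chr9:54899658-54899777). The peak had a fold of 4.22 and 12 fragments (6.2 to 21.0), and the TSS of Hykk was nearer to it than that of Ireb2. In replicate 2 the closest peak to the Ireb2 TSS was 292693 bp away. The genes for iron regulatory proteins thus had one strong shared region at Aco1 and one weak unshared peak at Ireb2, and this difference was not tested.

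Tfrc encodes the transferrin receptor. It had 1 shared region, 13561 bp upstream on chromosome 16 (chr16:32595188-32595617), with no other TSS in between. Its fold was 8.45 in replicate 1, with 25 fragments (16.2 to 36.9), and 12.2 in replicate 2, with 26 fragments (17.0 to 38.1). Both values were moderate for their lists, at percentiles 77.8 and 80.4.

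Slc11a1 encodes NRAMP1, a metal transporter of the phagosome membrane. A shared region covered its promoter (chr1:74374889-74375411), with the summit 7 bp past the TSS in replicate 1 and 95 bp before it in replicate 2. Replicate 1 gave a fold of 6.82 from 20 fragments (12.2 to 30.9), and replicate 2 a fold of 19 from 41 fragments (29.4 to 55.6). The libraries placed it differently, at percentile 66.8 of list 1 and 91.8 of list 2, and the ratio of its folds, 2.79, was the highest of the 20 regions.

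A weaker Slc11a1 region lay 1696 bp upstream (chr1:74373252-74373642), with folds of 6.53 and 9.21 and 26 and 21 fragments. Here the control level was above the genome-wide one in both libraries, at 3.14 fragments in replicate 1 and 1.39 in replicate 2. Replicate 2 also had an intronic peak at 5496 bp without a partner, with a fold of 5.41 and 11 fragments. Slc11a1 was thus the one transporter gene of the 9 with shared regions.

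Slc40a1 encodes ferroportin, the exporter of cellular iron. It had a peak in replicate 1 only, 2910 bp upstream (chr1:45928468-45928681), with a fold of 4.22 and 12 fragments (6.2 to 21.0), at percentile 17.4 of that list. In replicate 2 the closest peak was 56760 bp from the TSS, outside the window, with a fold of 7.67. Slc11a2 encodes DMT1, which moves iron out of endosomes. It had no peak in either list, and the closest ones were 112322 bp and 112225 bp from its TSS. For both genes, enrichment below 9 fragments in replicate 1 or 7 in replicate 2, the smallest pileups of any listed peak, was not detectable at this depth.

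In single lists, 8 of 9 genes had a peak in replicate 1, where the same rule gave one to 46.6% of protein-coding genes. In replicate 2, 6 of 9 had a peak against a background of 53.4%. Of the 24 peaks at the members in replicate 1, 22 (91.7%) overlapped a peak of replicate 2, compared with 69.4% of all peaks in that list. Of the 24 in replicate 2, 20 (83.3%) had a partner, compared with 59.2% overall. The 6 peaks without one had folds from 4.22 to 6.77.

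How many regions a gene collects was set beside the same count for every protein-coding gene. At least 6 shared regions were found at 1.97% of protein-coding genes, a group that holds Ncoa4 with 6 and Fth1 with 7. At least 7 were found at 1.07%. With only regions nearest to their own TSS, Fth1 and Ncoa4 had 5 each. Stricter overlap also lowered both counts, and these shares of genes were not recounted under those rules. Counts as high as those of Ftl1 or Slc11a1 were more usual, with at least 3 regions at 10.3% and at least 2 at 19.5% of genes. The counts were not adjusted for gene length or gene density. The members' median body length was 19969 bp, compared with 16778 bp for protein-coding genes. At Fth1 and Ftl1 no shared region had a mean summit in the gene body.

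**Figure D2:**
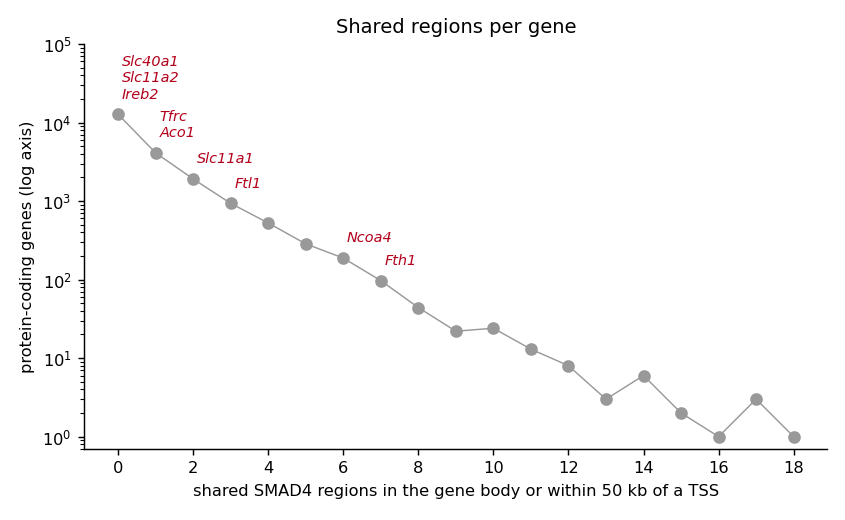
Number of protein-coding genes (log axis) by their number of shared SMAD4 regions in the gene body or within 50 kb of a TSS. Names mark the 9 iron handling genes, of which 3 have 0 regions, Ncoa4 has 6 and Fth1 has 7, where the curve has dropped from 12737 genes with none.

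A stricter assignment counted only the gene with the nearest TSS. The same 6 genes were the nearest gene of at least 1 shared region, against a background of 21.5% of protein-coding genes. Of the 20 regions, 16 were nearest to a member's TSS and 4 to another, namely 2 at Fth1, 1 at Ftl1 and 1 at Ncoa4. At the level of single peaks, 9 of 48 were nearest to another TSS. The 50 kb limit itself left out peaks close to it. Farthest inside were the Fth1 peaks at -48921 bp and -48997 bp. Just outside were a replicate 1 peak 50062 bp upstream of Ireb2, nearest to Crabp1, with a fold of 5.36, and a pair of overlapping peaks at -53026 bp and -53143 bp from Tfrc, with folds of 5.2 and 9.02, whose nearest TSS was that of Tfrc.

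The members' regions were not alike in strength. The strongest region of a gene was taken as the one whose lower percentile of both lists was highest. In replicate 1, the fragment counts of the strongest region per gene ran from 60 at Fth1 through 47 at Aco1, 29 at Ncoa4, 28 at Ftl1 and 25 at Tfrc to 20 at Slc11a1. In replicate 2, Fth1 and Aco1 had 66 each, followed by Slc11a1 with 41, Ncoa4 with 36, Ftl1 with 30 and Tfrc with 26. The Poisson intervals of Fth1 and Aco1 overlapped in both libraries. Those of Fth1 and Ncoa4 overlapped in neither, and among Ncoa4, Ftl1 and Tfrc they overlapped in both. The place of Slc11a1 differed between the libraries and with the choice of region, since its other region, at -1696 bp, had 26 fragments in replicate 1, above its promoter with 20 and Tfrc with 25.

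**Figure D3:**
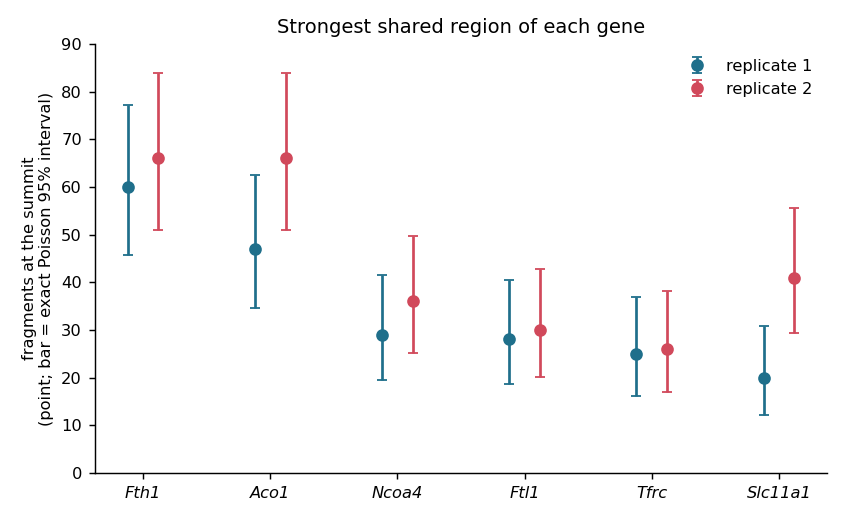
Fragments at the summit of the strongest shared region of each of the 6 genes in replicates 1 and 2, with exact Poisson 95% intervals for counting error. Fth1 (60 and 66) and Aco1 (47 and 66) lie highest, and Slc11a1 has the widest gap between replicates (20 and 41).

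Across the 20 regions, the median fold was 7.63 in replicate 1 and 11.3 in replicate 2. For all 10964 shared regions it was 6.82 and 9.48. The members' folds ranged from 4.87 to 19.8 in replicate 1 and from 5.41 to 30.2 in replicate 2, well inside the range of the lists, whose highest values were 54.0 and 96.1. The fold was higher in replicate 2 in 20 of 20 member regions and in 87.2% of all shared regions, and the control level was lower in that library. Ranks of the folds in both libraries had a Spearman rho of 0.766 over the 20 regions, and 0.782 over all shared regions. The regions share their libraries and several share a locus, so these values are descriptions.

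**Figure D4:**
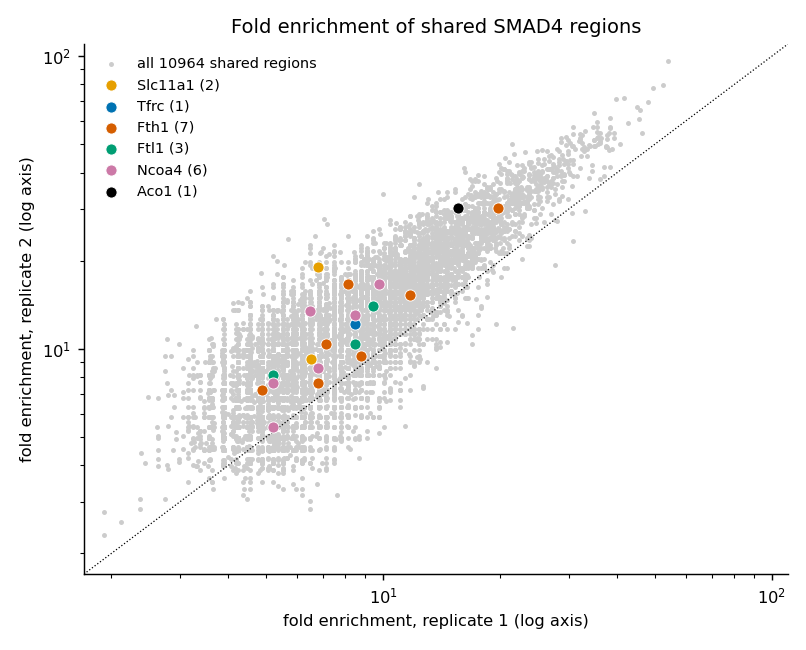
Fold enrichment in replicate 1 against replicate 2 (log axes) for all 10964 shared regions in grey and the 20 at iron handling genes in colour, with the number of regions per gene in the key. The dotted line marks equal folds. All 20 coloured points lie above it, the Fth1 and Aco1 points at a fold of 30.2 in replicate 2 are the highest, and the Slc11a1 promoter point (6.82, 19) lies farthest from the line.

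By genomic feature, 3 of 20 regions (15%) were in promoters, compared with 6.42% of all shared regions, and 1 of these 3 was the promoter of Gys1 and Ruvbl2. Intergenic sequence held 9 (45.0%, compared with 40.5%), introns 6 (30%, compared with 49.3%), and an exon and a termination site 1 each. Features were read at the mean summit, and at the exonic region the summits of both lists were intronic. The 9 intergenic regions were the 7 upstream of Fth1, the one upstream of Tfrc and the distal one of Slc11a1. The 201 bp windows at the member summits had a median GC content of 47.3%, compared with 43.8% over all shared regions. Their median repeat-masked share was 0%, compared with 9.95%. The median width of the regions was 549 bp, compared with 440 bp. Member regions were taken only from gene bodies or within 50 kb of a TSS, whereas the full set reached 1291873 bp from one. The median distance to the nearest TSS was 5233 bp for the members and 18041 bp for all shared regions. The feature and GC shares of both sets are therefore not like for like, and their differences were not tested.

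The sequence windows were then searched for 12 consensus strings of factors that act in AMs or in TGFβ and iron responses, each on both strands. The strings were GTCTGG and GTCTAGAC for SMADs, TTGCNNAA for C/EBP, GAGGAAGT for PU.1, CAGGAAGT for ELF5-type ETS factors, TGANTCA for AP-1, TGTGGT for RUNX, CACGTG for the E-box, AGGTCA for nuclear receptors, TTCNNNGAA for STAT5, GTGGGAA for RBPJ and TGACNNNGC for the antioxidant response element. The windows were centred on the mean summit of both lists. At the Ftl1 promoter region and the Fth1 regions at -5588 bp and -25877 bp, the summits of the lists were 290, 284 and 263 bp apart. The windows of these regions therefore held neither summit, and their matches or lack of matches describe the sequence between the summits. A match is a run of letters and does not show that the factor binds there. The strings fix different numbers of bases, with N for any base, so their shares are not comparable with one another.

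The C/EBP string was the most frequent and occurred in 8 of 20 member windows, compared with 40.8% of all shared windows. It was present in both of the strongest regions, once at Fth1, 67 bp before the mean summit, and in 2 copies of TTGCACAA at Aco1, 53 and 33 bp before it. RUNX strings occurred in 6 of 20 windows (26.4% of all), among them 3 copies in the Slc11a1 region at -1696 bp. The AP-1 string occurred in 4 of 20 (12.3%) and the PU.1 string in 3 of 20 (8.04%). The SMAD string GTCTGG occurred in 3 of 20 (11.2%), at the Slc11a1 promoter, the Ncoa4 region at -4878 bp and the Fth1 region at -27678 bp, where it lay 8 bp from the mean summit. The SMAD palindrome and the E-box occurred in 0 of 20 windows, compared with 0.465% and 3.66% of all.

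The antioxidant response element, a sequence through which NRF2 and BACH1 act on ferritin and heme genes, occurred in 3 of 20 windows, compared with 8.56% of all. The Ftl1 region past the 3′ end held 2 copies, and an intronic Ncoa4 region at -1057 bp and the Fth1 region at -48959 bp held 1 each. The nuclear receptor string occurred in 2 windows (15.4% of all), and ELF5-type ETS, STAT5 and RBPJ strings in 1 each (5.62%, 8.06% and 4.14%). The Tfrc window, the Ftl1 promoter window and the window of the Ncoa4 region in Timm23 matched none of the 12 strings. The shares over 20 windows, of which several belong to one gene, were not tested.

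**Figure D5:**
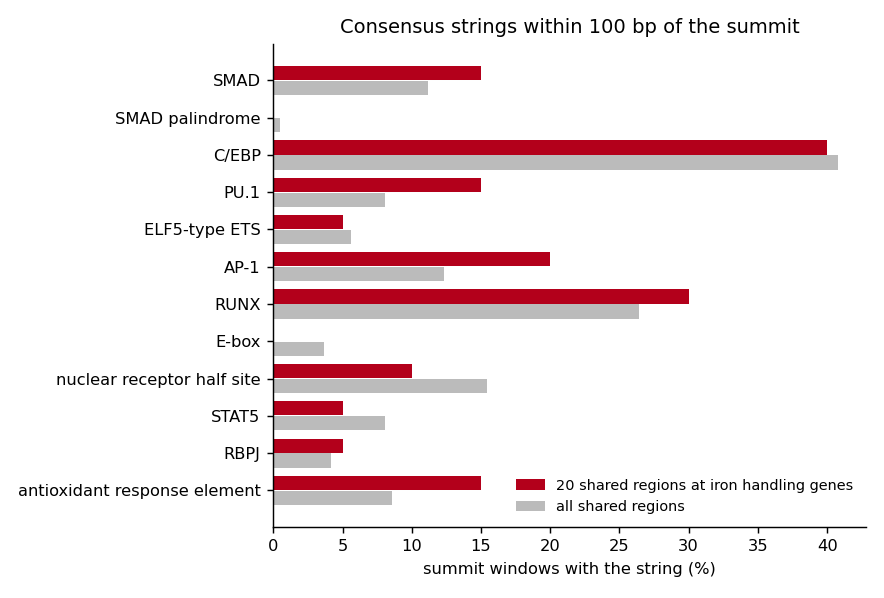
Share of windows with each of 12 consensus strings within 100 bp of the mean summit of both lists. Red bars are the 20 shared regions at iron handling genes and grey bars are all shared regions. The C/EBP string is the most frequent in both, at 8 of 20 windows and 40.8%, and the SMAD palindrome and the E-box have no red bar.

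A list of 30 other genes of iron and heme metabolism was counted by the same rule. Of these, 21 (70.0%) had at least 1 shared region and 13 (43.3%) were the nearest gene of one, beside the 39.1% and 21.5% of all protein-coding genes. They held 42 regions. The 6 genes with the strongest regions were Fbxl5, Trf, Flvcr1, Cd163, Slc25a28 and Slc39a8. Fbxl5, which encodes the ubiquitin ligase subunit that targets iron regulatory proteins for degradation when iron is plentiful, had 6 regions. The strongest had folds of 31.5 and 38.8 but lay 45052 bp upstream in an intron of Bst1, whose TSS was nearer. Another at -6398 bp, nearest to Fbxl5, had folds of 14.9 and 22.6. Trf, which encodes transferrin, had a region in its promoter, 137 bp upstream of the TSS, with folds of 16.6 and 25.7 and 50 and 56 fragments.

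The others had roles in heme and metal transport. Flvcr1 encodes a transporter first described as a heme exporter, and its strongest region had folds of 17.2 and 22.1 in an intron 2853 bp past the TSS, nearer to the TSS of the non-coding gene A230020J21Rik. Cd163 encodes the scavenger receptor for hemoglobin bound to haptoglobin, and had a region 31332 bp upstream with folds of 13.6 and 23.5. Slc25a28, a mitochondrial iron importer gene, had an intronic region with folds of 13.0 and 20.3. Slc39a8, which encodes a metal importer of the cell surface, had one with folds of 10.1 and 22.1 at 52409 bp, nearer to the TSS of a non-coding gene.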

How the data were processed

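SMAD4 HT-ChIPmentation was performed by the study on sorted AMs. Per the labels and methods, the authors trimmed adapters (Cutadapt), mapped the reads to mm10 (Bowtie2), removed duplicates and reads of low mapping quality, and called peaks in each library with MACS3 against input at a q-value of 0.05. The antibody supplier differs between the labels and the methods. The deposited lists give, per peak, a fold ratio over control, the −log10 p-value and q-value and a score, which was not used. The study's own sequencing totals were left out. Depth was read from the peaks, since fold and p fix the summit fragments, which came out whole within 0.02 for all peaks of both lists. The score, p and q are the authors' peak calls and were not tested.

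A shared region had overlapping peaks in both lists (minimum 1 bp) and belonged to a gene when a summit of either list met the rule. Its summit was the mean of the strongest summit of each list. Features followed the HOMER order (promoter, 1 kb before to 100 bp after a TSS; termination site, 100 bp before to 1 kb after; exon; intron; intergenic). Percentiles are ranks of a fold within its own list. Genes were 26089 with curated RefSeq transcripts on chromosomes 1 to 19 and X of GRCm38.p6. The listed genes were found among them by symbol, and peaks were assigned by position. The 9 members and the lists were chosen with earlier results of these data known. All 9 genes were to be described, with at most the 3 strongest regions of each in full, and the 6 strongest of the other iron genes. Steps were tested on simulated peaks and run with scipy 1.17.1, pysam 0.24.0, pandas 2.3.3, numpy 2.4.6 and matplotlib 3.10.9 in Python 3.11.15. In all, 11 alternatives were tried on the main counts.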

Additional observations from a re-analysis of the deposited data

How the results depend on the processing

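The counts moved most with the distance rule. With gene bodies alone and no window, 3 genes had a shared region, with 6 regions, of which 6 were nearest to a member TSS, and the peaks numbered 8 in replicate 1 and 7 in replicate 2. The share of protein-coding genes with a region was then 14.1%. A window of 10 kb gave 5 genes with a region, 12 regions, 15 peaks in replicate 2 and 20.6% of protein-coding genes. One of 100 kb gave 6 genes with a region, 29 regions and 38 peaks in replicate 2. At 100 kb the share of protein-coding genes with a region rose to 54.9%, while the count of member genes stayed at 6 of 9. Fth1 held 2 regions within 10 kb and 0 in its body, and Tfrc held 0 in either. With replicate 1 alone, 8 genes had a peak, since Slc40a1 and Ireb2 each gained 1, and with replicate 2 alone 6 had one. Stricter q limits, a minimum fold of 5, predicted transcripts and stricter overlap left 6 genes with a region. An overlap of 50% of both peaks left 16 of the 20 regions, and summits within 100 bp left 15. Under these rules Fth1 held 5 regions in either case, and Ncoa4 held 4 and 5. With predicted transcripts 20 regions remained, but 12 instead of 16 were nearest to a member TSS. The promoter share of the 20 regions was 45.0% when a promoter reached 3 kb to either side. The 6.42% of all shared regions refers to the narrower promoter and does not serve as its background. Windows of 50 bp and 200 bp to either side of the summit gave the C/EBP string in 5 and 13 of the 20 regions (28.0% and 49.6% of all shared regions), PU.1 in 0 and 4 (4.58% and 10.9%), AP-1 in 2 and 8 (6.77% and 19.5%) and GTCTGG in 2 and 5 (5.83% and 21.5%). No paired analysis was possible because the data hold one group and no test. Depth is known from summit fragments alone, which limits what weak peaks can show.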

Other observations

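Heme, which AMs obtain from red cells, is broken down by the products of Hmox1 and Blvrb. Both genes had a shared SMAD4 region whose mean summit lay in an annotated promoter. The Hmox1 region, 51 bp upstream of the TSS (chr8:75093410-75093735), had a fold of 3.90 with 11 fragments in replicate 1 and 11.7 with 25 fragments in replicate 2. Its percentile was 9.42 in list 1 and 79.1 in list 2, so that the libraries placed it differently. Hmox1 had another shared region in an intron of Mcm5, whose TSS was nearest, with folds of 5.67 and 4.22. It also had 1 peak without a partner in replicate 1 and 2 in replicate 2. The Blvrb region (chr7:27451307-27451591) lay inside the gene, 995 bp before an internal alternative TSS. With summits 84 bp apart, it sat at the edge of the 1 kb promoter. It had a fold of 6.56 with 21 fragments in replicate 1 and 5.41 with 11 fragments in replicate 2, at percentiles 65.4 and 28.5. Each library also had 1 Blvrb peak without a partner, 396 bp from a Blvrb TSS in replicate 1 and 660 bp in replicate 2. Hpx, which encodes the heme carrier hemopexin, and Slc48a1, which encodes a heme transporter of the lysosome, had no shared region.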
